A study of Mus musculus with 6 samples.

Results

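The Notch pathway and the factors that commit crypt cells to a secretory fate were examined as 10 genes: the receptor genes Notch1 and Notch2, the ligand genes Dll1, Dll4 and Jag1, the receptor-modifying enzyme gene Mfng, the Hes genes Hes1 and Hes6, and the secretory transcription factor genes Atoh1 and Gfi1. They were found by gene symbol among the 28564 genes of the count table, and all 10 were present. RNA had been sequenced from small intestinal crypt epithelium of male mice aged 13 weeks, 3 wild-type control (C57Bl/6) and 3 Apln-/- samples, which the labels call biological replicates. Apln encodes the secreted peptide apelin and is lost in the Apln-/- animals. The labels do not say how the allele was made, nor whether a sample pooled animals. Cells had been sorted as live and single, positive for EpCAM and CD44 and negative for CD31 and CD45, a gate that in the crypt can take in stem cells, dividing progenitors, Paneth cells and young secretory and absorptive cells. The comparison asks how these genes differ between crypt epithelium of Apln-/- mice and that of wild-type mice.

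In the crypt, a cell that carries Notch ligands on its surface activates Notch receptors on its neighbours. The cleaved receptor enters the nucleus, joins the DNA-binding protein RBPJ and switches on repressor genes such as Hes1, and HES1 in turn represses Atoh1. A cell that escapes this signal keeps Atoh1, makes more ligand and becomes a Paneth, goblet or enteroendocrine cell, while a cell that receives it stays a progenitor or becomes absorptive.

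Atoh1 and the ligand gene Dll1, both genes of the signal-sending secretory progenitor, were lower in all 3 Apln-/- libraries than in any wild-type library, and so was Notch2. Hes1, the target in the receiving cell, was higher in all 3. These differences were of modest size, 1.30-fold to 1.76-fold, and 0 of the 10 genes passed edgeR's quasi-likelihood test after Benjamini-Hochberg adjustment over the 15122 genes tested. The call rate over all genes in that comparison was 0.172%. At an unadjusted p under 0.05 the same test had 3 of the 10 lower (Atoh1, Dll1 and Notch2) and 0 higher, beside 7.66% of all tested genes lower and 7.53% higher. Groups that did not overlap were seen for 3 members in the lower direction (9.56% of all tested genes) and for 1 in the higher direction (11.3%). That 1 member, Hes1, is a share of the 10 no larger than the share over all genes. Its unadjusted p was 0.0528 in the edgeR test, and 0.287 without Apln-/- library 1. The DESeq2 Wald test called 1 of the 10, Atoh1, and 3.84% of all tested genes. The median log2 fold change of the members was -0.13, beside -0.01 over all genes.

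Library totals were 23046880 to 26513481 counts. Of these, 6037237 to 7616648 lay outside the 5 most abundant entries in wild type and 5144725 to 5623112 in Apln-/-. The libraries labelled Apln-/- held 0 counts of Apln in each, and the wild-type libraries held 29, 7 and 5. Stem cell genes were present throughout, Lgr5 at 25.7 to 38.6 CPM over the 6 libraries and Olfm4 at 521 to 1161 CPM. The genes of the sorted-out antigens were low, Pecam1 (CD31) at 1.31 CPM or less and Ptprc (CD45) at 1.18 to 3.31 CPM. CPM are read counts relative to library size, scaled by TMM, a factor per library that evens out differences in RNA make-up. That factor was 1.03 to 1.20 in wild type and 0.841 to 0.919 in Apln-/-, so it went with the genotype. Shorter transcripts were higher and longer ones lower in the Apln-/- libraries, with a Spearman's rho of -0.26 between fold change and transcript length over genes. Exons of Notch1, Notch2, Dll1, Dll4 and Gfi1 share bases with another annotated gene. Whether the counting used strand is not known from the labels, so reads in those stretches cannot be assigned with certainty. Levels come from mixed cells, in which fewer cells of a type and less RNA per cell cannot be told apart.

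Atoh1 (ENSMUSG00000073043, chromosome 6, 64729125 to 64731245, plus strand of mm10) encodes the basic helix-loop-helix factor without which the intestine forms no Paneth, goblet or enteroendocrine cells. Its levels were 11.98, 7.82 and 8.45 CPM in wild-type libraries 1, 2 and 3 and 5.30, 4.75 and 5.95 CPM in Apln-/- libraries 1, 2 and 3, from 103 to 302 counts per library. Every Apln-/- library lay below the lowest wild-type library, and wild-type library 1 stood highest. The means were 9.42 ± 2.24 and 5.34 ± 0.602 CPM (SD, n = 3 each), or 1.76-fold lower in Apln-/-. The log2 fold change was -0.82 ± 0.24 (SE; 95% interval -1.34 to -0.30), and in edgeR's fit the unadjusted p was 0.00475 and the adjusted p 0.142. The DESeq2 Wald test gave an adjusted p of 0.0437, and over the 15 alternative settings the adjusted p ran from 0.0437 to 0.503. Without wild-type library 1 the log2 fold change was -0.62, and all 15 settings had a negative value at an unadjusted p under 0.05.

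Dll1 (ENSMUSG00000014773, chromosome 17, 15367354 to 15376872, minus strand) encodes a membrane-bound Notch ligand of secretory progenitors. It was at 10.9, 9.71 and 7.41 CPM in wild-type libraries 1 to 3 and at 6.00, 5.21 and 6.47 CPM in Apln-/- libraries 1 to 3. The groups were again apart. Dll1 was 1.58-fold lower, a log2 fold change of -0.66 ± 0.23 (SE; 95% interval -1.15 to -0.17) with an unadjusted p of 0.0129 and an adjusted p of 0.206 in the same edgeR test. Without Apln-/- library 2 the value was -0.58 at an unadjusted p of 0.0532. Across libraries Dll1 followed Atoh1 more closely than any other member did: after centring each gene's log2 CPM on its mean, their profiles differed by a root mean square of 0.18, the smallest of the 45 pairs of members. The profiles span both groups, so the lower levels of both genes in Apln-/- enter this measure. Of the 4219 exon bases of Dll1, 867 are shared with A930024N18Rik, a gene on the other strand. That gene had 71, 138 and 90 counts in wild type and 56, 46 and 42 in Apln-/-, and its scaled levels did not overlap between the groups either; its part in the Dll1 value was not tested.

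Dll4 (ENSMUSG00000027314, chromosome 2, 119325784 to 119335962) encodes the other Delta-type ligand that acts with Dll1 in crypts. It was at 4.72, 3.00 and 4.48 CPM in the controls and 4.31, 3.14 and 3.83 CPM in Apln-/-. The groups overlapped, with a log2 fold change of -0.11 (95% interval -0.76 to 0.53), so a difference as large as that of Dll1 lies within its interval. Jag1 (ENSMUSG00000027276, chromosome 2, 137081456 to 137116644) encodes a ligand of the Serrate type. Its levels were 3.37, 5.96 and 3.56 CPM in the controls and 4.03, 2.95 and 6.10 CPM in Apln-/-. One library of each group stood high, and the log2 fold change of 0.02 had a 95% interval from -0.72 to 0.76.

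The upstream windows of 2 ligand genes, Atoh1 and Hes6 are shown because Hes repressors are known to bind class C sites (CACGNG) and N-boxes (CACNAG) in promoters. The genes chosen are those with a full window of 250 bases before the annotated start: Atoh1 and Dll1, whose groups did not overlap, and Dll4 and Hes6, whose groups did. The sequences are from RefSeq on GRCm38.p6, 5′ to 3′ on the strand of the gene, and capitals mark matches to CACGNG on either strand. They lie at chr6:64728875-64729124 (Atoh1, plus), chr17:15376933-15377182 (Dll1, minus), chr2:119325534-119325783 (Dll4, plus) and chr1:91414039-91414288 (Hes6, minus).
Atoh1: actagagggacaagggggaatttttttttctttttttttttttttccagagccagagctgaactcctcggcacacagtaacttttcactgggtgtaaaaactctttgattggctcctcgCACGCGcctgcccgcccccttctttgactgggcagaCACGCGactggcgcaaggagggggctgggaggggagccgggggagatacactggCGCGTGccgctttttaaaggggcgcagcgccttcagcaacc
Dll1: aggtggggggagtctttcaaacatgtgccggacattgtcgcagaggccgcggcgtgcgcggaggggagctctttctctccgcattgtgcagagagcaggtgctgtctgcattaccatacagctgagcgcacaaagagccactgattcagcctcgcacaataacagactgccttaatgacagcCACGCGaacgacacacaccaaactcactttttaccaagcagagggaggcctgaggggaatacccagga
Dll4: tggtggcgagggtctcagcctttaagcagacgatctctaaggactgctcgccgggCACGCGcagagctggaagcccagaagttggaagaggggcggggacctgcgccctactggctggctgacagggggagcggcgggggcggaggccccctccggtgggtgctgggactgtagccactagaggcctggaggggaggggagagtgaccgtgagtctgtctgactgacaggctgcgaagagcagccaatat
Hes6: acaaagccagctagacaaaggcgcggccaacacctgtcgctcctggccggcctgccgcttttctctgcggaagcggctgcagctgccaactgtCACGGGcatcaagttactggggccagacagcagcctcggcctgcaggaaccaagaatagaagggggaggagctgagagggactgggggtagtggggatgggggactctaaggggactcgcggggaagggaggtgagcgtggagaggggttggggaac
The Atoh1 window held 3 matches to CACGNG and each of the other windows held 1. Among 32851 promoter windows of this length, 23.5% held at least 1 such match and 1.11% held at least 3. The shorter windows of Jag1 (126 bases) and Notch2 (239 bases), not shown, held 2 and 1 matches to CACGNG. The groups overlapped for Jag1 and not for Notch2. In the windows shown, CACNAG was found once, in Dll4 (36.7% of all windows). The letters GTGGGAA, a core bound by RBPJ, were in none of these windows and in 5.42% of all. CAGNTG, an E-box form, was found at 2 positions in Dll1 and 3 in Hes6, and 44.8% of all windows held it. It does not overlap the CACGNG matches. These matches are letters in a window, not measured binding. Of the 10 members, 8 matched the RefSeq promoter table by symbol.

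Both receptor genes had fold changes below 0, and the difference between them was not tested. Notch2 (ENSMUSG00000027878, chromosome 3, 98013527 to 98150361, plus strand) was at 17.8, 20.9 and 19.9 CPM in the controls and 11.8, 16.0 and 13.5 CPM in Apln-/-. All Apln-/- libraries were lower, and Apln-/- library 2 came closest to wild type. The log2 fold change was -0.51 ± 0.18 (SE; 95% interval -0.89 to -0.12), and in edgeR's fit the unadjusted p was 0.0142 and the adjusted p 0.212. The longest Notch2 transcript has 10500 bases, a class of transcript that was lower in the Apln-/- libraries: 499 tested genes of like length (within 1.25-fold) had a median log2 fold change of -0.24. When transcript length and GC content were corrected for, the value for Notch2 was -0.19, at an unadjusted p of 0.306. Without Apln-/- library 1 it was -0.40 at an unadjusted p of 0.0785. Notch1 (ENSMUSG00000026923, chromosome 2, 26457903 to 26516663, minus strand), the main Notch receptor of crypt stem cells together with Notch2, was at 22.7, 32.2 and 24.7 CPM in the controls and 27.6, 19.5 and 24.5 CPM in Apln-/-. The groups overlapped widely. Its log2 fold change was -0.15 (95% interval -0.56 to 0.25), close to the median of -0.20 of 711 genes of like length, and 0.20 with the length and GC correction. The ratio of Notch1 to Notch2 per transcript length overlapped between the groups, with group means of 1.49 in wild type and 1.92 in Apln-/- (geometric means of 3 libraries).

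Mfng (ENSMUSG00000018169, chromosome 15, 78755882 to 78773475) encodes Manic fringe, a glycosyltransferase that changes which ligands a Notch receptor answers to. It had 12, 2 and 0 counts in wild type and 15, 2 and 16 in Apln-/-. The count of 0 in wild-type library 3 leaves room for a level of up to 0.0946 CPM (3 counts). The log2 fold change of 1.54 had a 95% interval from -0.89 to 3.97. It ran from 0.93 (without wild-type library 3) to 3.76 (without wild-type library 1, unadjusted p 0.0254, adjusted p 0.268 in edgeR's quasi-likelihood test) when 1 library was left out. Mfng passed the filter on low counts through 1 wild-type and 2 Apln-/- libraries.

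**Figure D1:**
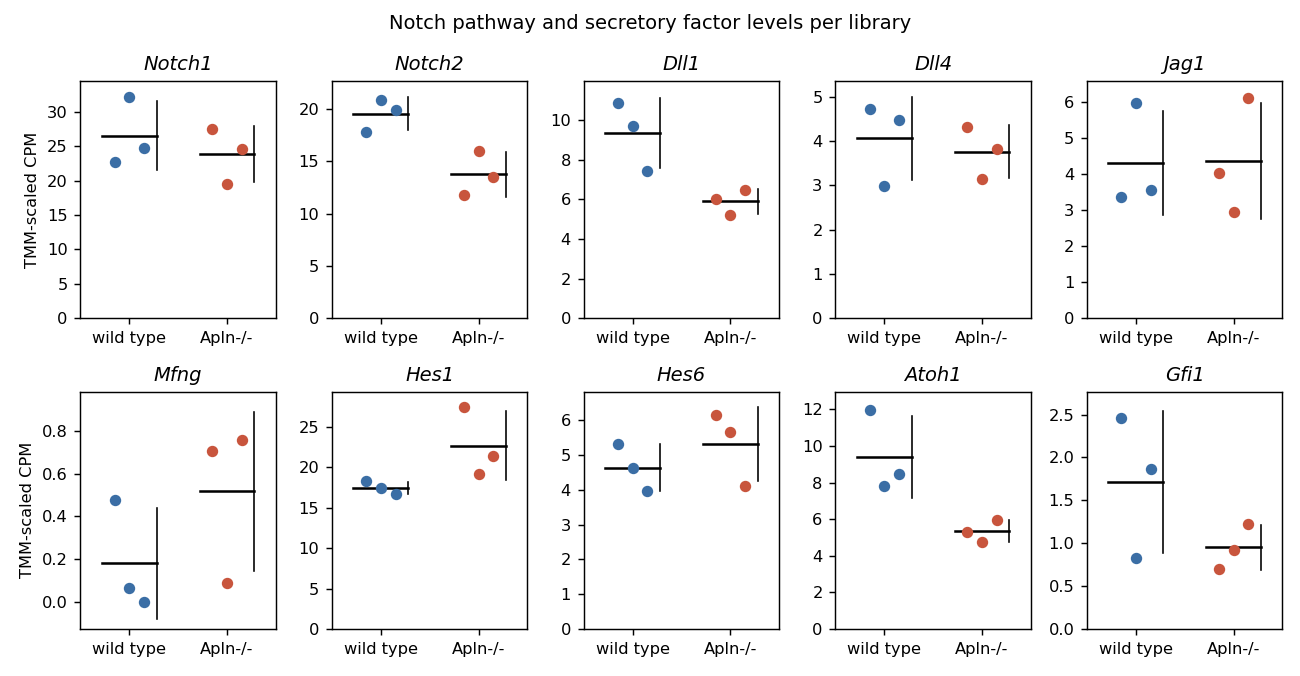
TMM-scaled CPM of the 10 genes in each of 3 wild-type (blue) and 3 Apln-/- (red) libraries; each panel has its own axis, horizontal lines are group means and vertical lines the SD. For Atoh1, Dll1 and Notch2 every Apln-/- point lies below every wild-type point, and for Hes1 every Apln-/- point lies above.

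Hes1 (ENSMUSG00000022528, chromosome 16, 30064384 to 30067796, plus strand) encodes the repressor through which Notch keeps progenitors from the secretory fate. It was at 18.3, 17.5 and 16.7 CPM in wild-type libraries 1 to 3, a narrow spread, and at 27.4, 19.2 and 21.5 CPM in Apln-/- libraries 1 to 3. All Apln-/- libraries were higher, but Apln-/- library 1 carried much of the difference. The means were 17.5 ± 0.753 and 22.7 ± 4.26 CPM (SD, n = 3 each). Hes1 was 1.30-fold higher, a log2 fold change of 0.38 ± 0.18 (SE; 95% interval -0.01 to 0.76) and in edgeR's fit the unadjusted p was 0.0528 and the adjusted p 0.339. Without Apln-/- library 1 the log2 fold change was 0.22, at an unadjusted p of 0.287 in the same edgeR test. Hes1 transcripts are short (1468 bases), and 1812 genes of like length had a median log2 fold change of 0.16. The value for Hes1 with the length and GC correction was 0.22, at an unadjusted p of 0.225 in that test. The log2 fold change of Hes1 was positive in all 15 settings, and 3 of them had an unadjusted p under 0.05.

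Hes6 (ENSMUSG00000067071, chromosome 1, 91411483 to 91414038, minus strand) encodes a relative of HES1 that counteracts it and is found in differentiating secretory cells. Its levels were 5.32, 4.61 and 3.97 CPM in the controls and 6.14, 5.68 and 4.11 CPM in Apln-/-. The groups overlapped, and the log2 fold change was 0.20 (95% interval -0.38 to 0.77). Gfi1 (ENSMUSG00000029275, chromosome 5, 107716657 to 107726036, minus strand) encodes a zinc finger repressor that acts after Atoh1 to steer cells to the Paneth and goblet fates and away from the enteroendocrine one. It was at 2.46, 0.826 and 1.86 CPM in the controls and 0.703, 0.923 and 1.23 CPM in Apln-/-. Wild-type library 2 fell within the Apln-/- range and the groups overlapped. The log2 fold change of -0.84 was as large as that of Atoh1, but with 15 to 62 counts per library its SE was 0.53 and its 95% interval ran from -1.998 to 0.31. Without wild-type library 2 the value was -1.18 at an unadjusted p of 0.0272, and without wild-type library 1 it was -0.51.

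**Figure D2:**
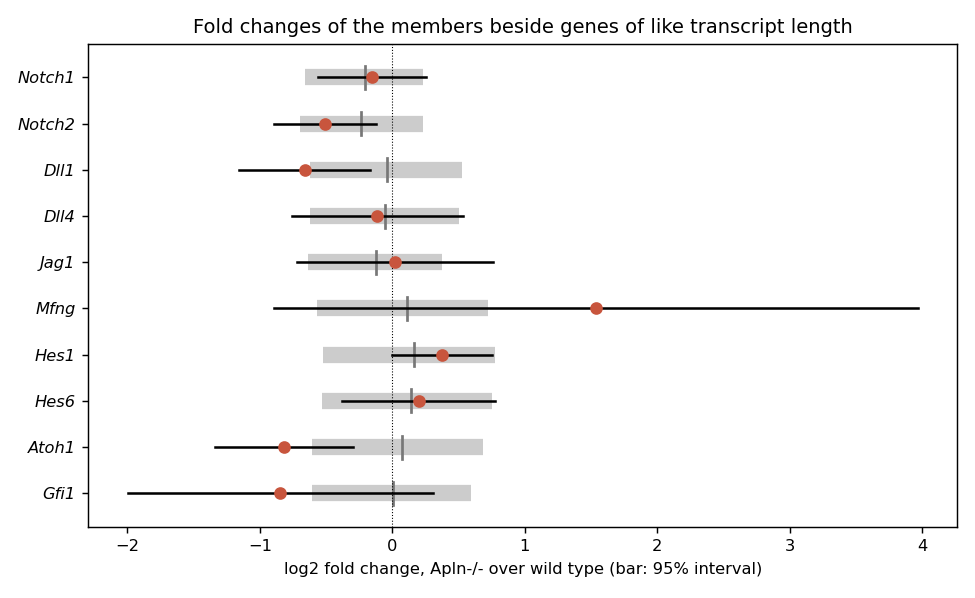
Log2 fold change of each gene, Apln-/- over wild type (red points), with its 95% interval (black bars); grey bands span the 10th to 90th percentile of tested genes with a transcript length within 1.25-fold, and grey ticks mark their median. Atoh1, Dll1 and Gfi1 lie left of their bands, with intervals that reach into them, Mfng lies right of its band with the widest interval, and Notch1 and Notch2 lie within theirs.

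Per transcript length, Hes1 was the most abundant of the 10 in every library. Its per-length level, counts per kilobase of the longest annotated transcript scaled to the same total in each library, was 12.4 ± 0.398 in wild type and 13.0 ± 1.48 in Apln-/- (SD, n = 3 each). In wild type Atoh1 came next at 4.57 ± 0.787, above Hes6 in all 3 libraries. Hes6 (3.05 ± 0.286), Notch1 (2.92 ± 0.674) and Dll1 (2.69 ± 0.400) followed on the same scale, with overlapping ranges between neighbours. Below them lay the per-length levels of Notch2 (1.94 ± 0.266), Dll4 (1.12 ± 0.230), Jag1 (0.801 ± 0.297), Gfi1 (0.614 ± 0.271) and Mfng (0.0954 ± 0.132). The ranges of Dll4 and Jag1, and of Jag1 and Gfi1, overlapped. In Apln-/- Atoh1 came after Hes6, at a per-length level of 2.13 ± 0.260 against 2.85 ± 0.518, with overlapping ranges, and beside Notch1 at 2.12 ± 0.241. The order of the others was the same in both genotypes. That total includes the 5 most abundant entries, which held 70.7% to 75.3% of the control and 77.3% to 78.9% of the Apln-/- counts, so the scale serves only to order genes within a library.

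Ratios within a library do not depend on the scaling between libraries. The per-length ratio of Atoh1 to Hes1 had log2 values of -1.14, -1.69 and -1.52 in wild type and -2.90, -2.54 and -2.38 in Apln-/-. The groups did not overlap, and the ratio stood at 0.366 in wild type and 0.164 in Apln-/- (geometric means). For Dll1 to Hes1 the log2 ratios were -2.03, -2.14 and -2.46 in wild type and -3.48, -3.17 and -3.02 in Apln-/-, also apart. The ratio of Gfi1 to Atoh1 overlapped, at geometric means of 0.125 and 0.129, as did that of Dll1 to Dll4, at 2.42 and 1.65. These ratios were chosen with the members' values known and carry no test. By CPM, Atoh1 and Dll1 were lower and Hes1 higher in every Apln-/- library, so the ratios of Atoh1 and Dll1 to Hes1 had to lie apart. Their separation adds nothing to those values.

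**Figure D3:**
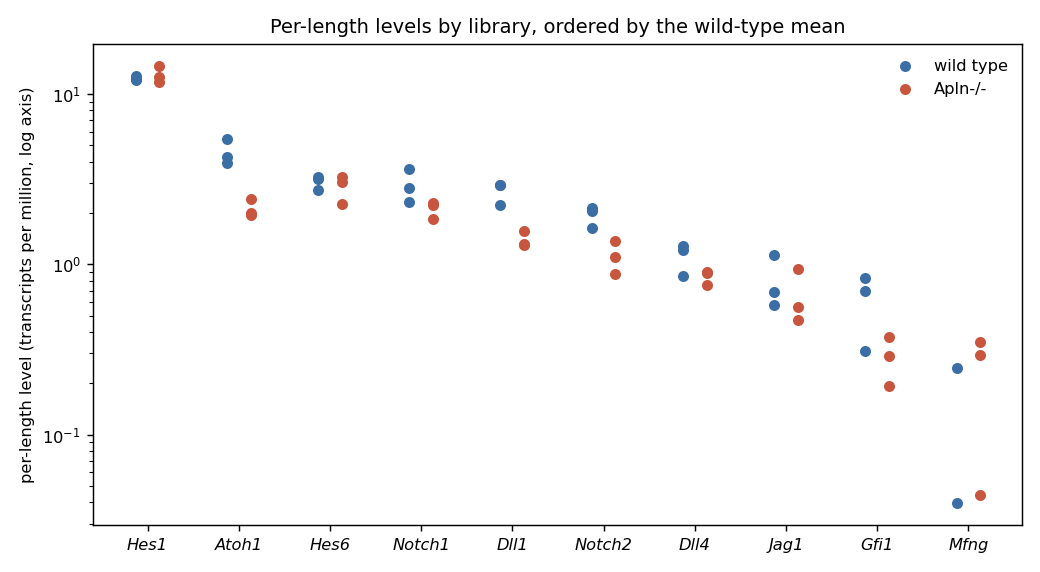
Per-length levels (axis on a log scale, each library scaled to the same total) of the 10 genes in each wild-type (blue) and Apln-/- (red) library, ordered by the wild-type mean; the 1 value of 0 (Mfng in wild-type library 3) is left out. Hes1 is highest in all 6 libraries, and by group mean Atoh1 lies above Hes6 in wild type and below it in Apln-/-.

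Other transcription factors of secretory commitment and maturation were mostly lower in Apln-/-. Of 31 tested, 24 had a negative and 7 a positive log2 fold change, and the median was -0.38 beside -0.01 over all genes. By edgeR's quasi-likelihood test 0 passed after adjustment over all genes, 12 were lower at an unadjusted p under 0.05 (38.7% of the list, beside 7.66% of all tested genes) and 2 were higher. The DESeq2 Wald test called 6 of the 31 (3.84% of all tested genes). Without 1 library each, 8 to 11 were lower at that p, and with the length and GC correction 11 were. Pou2f3, which specifies tuft cells, was at 9.53 ± 1.16 CPM in the controls and 3.69 ± 1.73 CPM in Apln-/- (SD, n = 3 each), with an adjusted p of 0.0911 in the edgeR test. Creb3l1, a membrane-bound factor of secretory cells and a gene downstream of Atoh1, was at 43.3 ± 7.89 and 26.2 ± 6.47 CPM. Cbfa2t3, a corepressor gene, was at 8.67 ± 2.96 and 4.31 ± 1.38 CPM, and Tcf3, whose product pairs with Atoh1-type factors, at 29.2 ± 13.0 and 15.04 ± 1.68 CPM, both with overlapping groups. Spdef, the goblet and Paneth maturation factor downstream of Atoh1, was at 6.80 ± 0.780 and 3.83 ± 1.45 CPM without overlap. Neurog3, which starts the enteroendocrine programme, was at 2.33 ± 0.483 and 1.497 ± 0.288 CPM. Its unadjusted p in the edgeR test was 0.131, so Neurog3 is not among the 12. Both genes at an unadjusted p under 0.05 in the other direction encode Id proteins, which hold basic helix-loop-helix factors inactive: Id1 was at 8.06 ± 5.15 and 17.2 ± 2.28 CPM and Id2 at 3.62 ± 1.33 and 6.58 ± 0.237 CPM. Spdef, Neurog3, Id1 and Id2 were named after their values were seen.

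Marker genes of the mature secretory types did not all lie on the same side. Tuft cell markers had a median log2 fold change of -1.01. At an unadjusted p under 0.05, 6 of 11 tested were lower (7.66% of all tested genes) and 0 higher (7.53%). Their summed level was 105 to 148 CPM over the wild-type libraries and 41.9 to 86.4 CPM over the Apln-/- libraries. Dclk1 was at 41.6 ± 8.65 and 20.7 ± 8.44 CPM and the taste channel gene Trpm5 at 19.5 ± 3.46 and 9.70 ± 3.44 CPM. Of the list 1 gene, Plcb2, passed adjustment over all genes in the edgeR test (0.172% of all tested genes). With 4 of the other settings (among them DESeq2 size factors and the length and GC correction) 0 of the 11 did. The same held when any library but wild-type library 3 was left out. The DESeq2 Wald test called 5 of the 11 (3.84% of all tested genes). Enteroendocrine markers had 7 of 15 lower (7.66% of all tested genes) and 0 higher, and the DESeq2 Wald test called 3 (3.84% of all tested genes). Their median was -0.46, with summed levels of 1241 to 1718 CPM in the controls and 899 to 1104 CPM in Apln-/-. Without Apln-/- library 3, 4 of the 15 were lower. The granin genes Chga (94.9 ± 30.4 and 41.6 ± 7.69 CPM) and Chgb (567 ± 59.8 and 348 ± 48.9 CPM) did not overlap between the groups. Paneth cell markers had 0 of 12 lower and 7 higher (7.53% of all tested genes), a median of 0.81 and summed levels of 750 to 1287 CPM in the controls and 1292 to 3045 CPM in Apln-/-. The number higher was 2 without wild-type library 2, 2 without Apln-/- library 1 (with a median of 0.42), 3 without wild-type library 1, and 2, with 1 lower, in the DESeq2 Wald test. The first 2 markers of that list were Lyz1 (468 ± 107 and 1068 ± 476 CPM) and Mptx2 (47.5 ± 19.9 and 117 ± 19.99 CPM). Goblet cell markers had 1 of 12 lower, Muc2, and 1 higher, Ccl6, with overlapping sums and 0 to 4 lower when 1 library was left out (4 without wild-type library 2, 3 without Apln-/- library 3, 0 without wild-type library 3 or Apln-/- library 1), and wild-type library 3 had the highest sum at 5294 CPM. The mucin gene Muc2 was at 714, 520 and 1899 CPM in wild type and 416, 540.5 and 581 CPM in Apln-/-, and Tff3 at 145 ± 48.6 and 165 ± 11.9 CPM. The part of these shifts in the values of Atoh1, Dll1 and the other secretory factors was not tested. Without wild-type library 3, the library rich in goblet cell transcripts, the log2 fold changes were -0.89 for Atoh1 and -0.80 for Dll1.

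**Figure D4:**
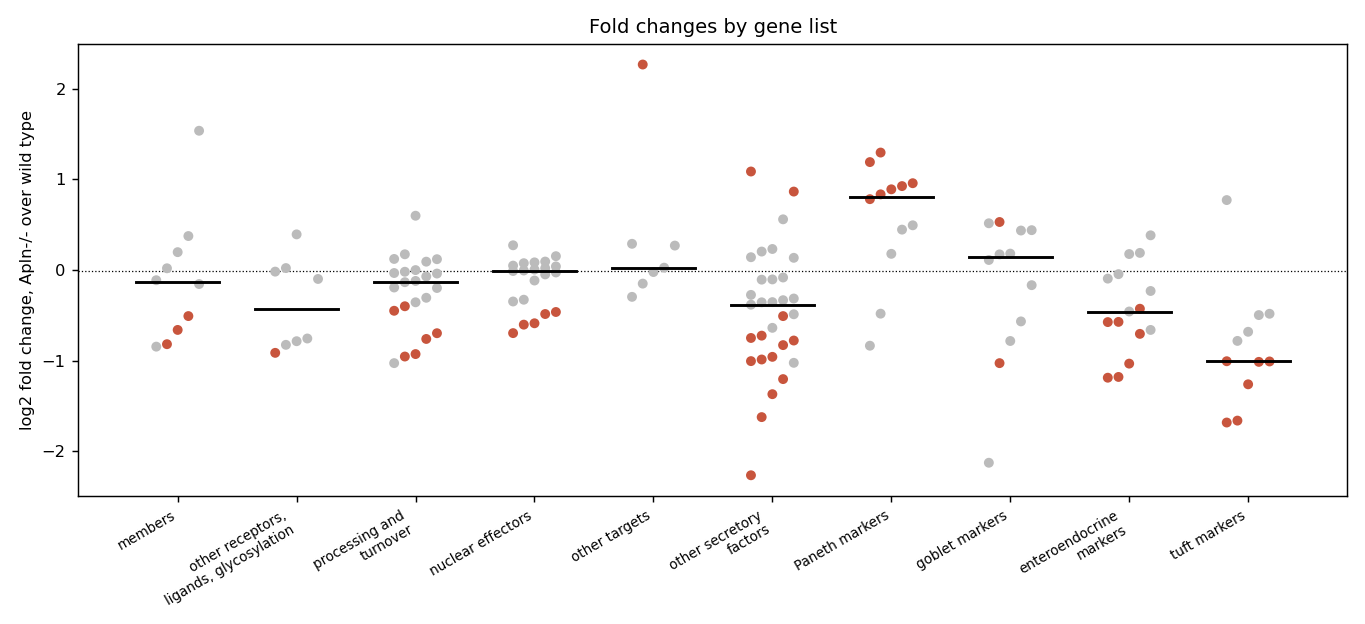
Log2 fold change, Apln-/- over wild type, of every tested gene in each list; red points have an unadjusted p under 0.05 in edgeR's quasi-likelihood test, grey points do not, black lines are list medians and the dotted line is the median over all genes. The lists of other secretory factors, enteroendocrine and tuft markers have medians of -0.38, -0.46 and -1.01, and the Paneth list has 0.81.

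The remaining Notch genes were examined by their step in the pathway, and 0 of 59 tested passed adjustment over all genes in the edgeR test, with 12 lower and 1 higher at an unadjusted p under 0.05, beside 7.66% and 7.53% of all tested genes. The DESeq2 Wald test called 3 of them, all nuclear effectors, beside 3.84% of all tested genes. Of 8 tested receptor, ligand and glycosylation genes, 1 was lower at an unadjusted p under 0.05: Rfng (Radical fringe), at 3.52 ± 0.932 CPM in the controls and 1.87 ± 0.471 CPM in Apln-/- (SD, n = 3 each). None of the 8 was lower at that p without wild-type library 2, Apln-/- library 1 or Apln-/- library 3. The receptor genes Notch3 and Notch4 were low, at 0.946 ± 0.413 and 0.531 ± 0.102 CPM and at 2.31 ± 1.28 and 1.34 ± 0.427 CPM, with overlapping groups. Eogt, an enzyme gene for O-linked GlcNAc on Notch, was at 7.94 ± 1.65 and 10.4 ± 1.33 CPM, also with overlap.

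Genes of ligand endocytosis, receptor cleavage and turnover had 6 of 23 lower and 0 higher at that p (7.66% of all tested genes lower). Furin, the convertase that makes the first cut of the receptor, was at 8.995 ± 3.37 and 5.30 ± 0.0504 CPM. Neurl1b, a ubiquitin ligase gene for Notch ligands, was at 4.87 ± 1.21 and 2.55 ± 0.845 CPM. Epn1, an endocytic adaptor gene, was at 18.2 ± 7.61 and 11.3 ± 2.13 CPM, and the kinase gene Aak1 at 20.8 ± 0.832 and 15.2 ± 0.917 CPM. With the length and GC correction 1 of the 23 was lower, beside 5.2% of all tested genes. Without Apln-/- library 1 there were 3 lower, and without Apln-/- library 3 there was 1.

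Among nuclear effectors and corepressors 5 of 21 were lower (7.66% of all tested genes) and 0 higher, and 3 were lower without Apln-/- library 1. The coactivator genes Crebbp (95.5 ± 9.97 and 62.9 ± 4.96 CPM) and Ep300 (86.5 ± 7.18 and 61.8 ± 6.87 CPM) and the corepressor gene Ncor1 (117 ± 10.9 and 78.0 ± 5.87 CPM) did not overlap between the groups. Their longest transcripts have 9037 to 10820 bases, the length class that was lower in Apln-/-, and with the length and GC correction 1 of the 21 was lower, beside 5.2% of all tested genes. Rbpj itself was at 9.09 ± 1.75 and 7.25 ± 0.932 CPM with overlap.

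Of the other Notch targets 7 were tested, with 0 lower and 1 higher. The number higher was 2 without wild-type library 3 and without Apln-/- library 2 (then with 1 lower), and 0 without Apln-/- library 3. The gene that was higher over all 6 libraries, Hes2, was at 0.201 ± 0.148 and 0.982 ± 0.171 CPM and passed the filter on low counts only through Apln-/- libraries. Olfm4, a Notch-dependent stem cell gene, was at 716 ± 169 and 875 ± 301 CPM, Nrarp, a feedback inhibitor of Notch, at 8.70 ± 2.89 and 8.86 ± 1.12 CPM, Ccnd1 at 112 ± 24.7 and 91.0 ± 20.4 CPM and Cdkn1a at 67.7 ± 29.9 and 81.7 ± 3.42 CPM, all with overlapping groups. Hes5, Hes7, Hey1 and Hey2 lay below the filter.

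The genes whose centred log2 CPM profile over the 6 libraries lay nearest to that of Atoh1, among 4694 protein-coding genes of 10 CPM or more, were Abca3 (root mean square difference 0.09), Hmgn5 (0.11) and Hid1 (0.12). Atoh1 itself spanned 1.32 on that scale. For Dll1 they were Hmgn5 (0.08), Adgrg1 (0.09) and Setd7 (0.09), so Hmgn5 was near both. Nearest to Hes1 were Riok2 (0.06), Aqp1 (0.09) and Dpyd (0.09), and nearest to Notch1 were Trim28 (0.03), Npc1 (0.05) and Ppp1r2 (0.07). These are descriptions over the 6 libraries of both groups, and carry no test. Differences between the groups enter them.

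**Figure D5:**
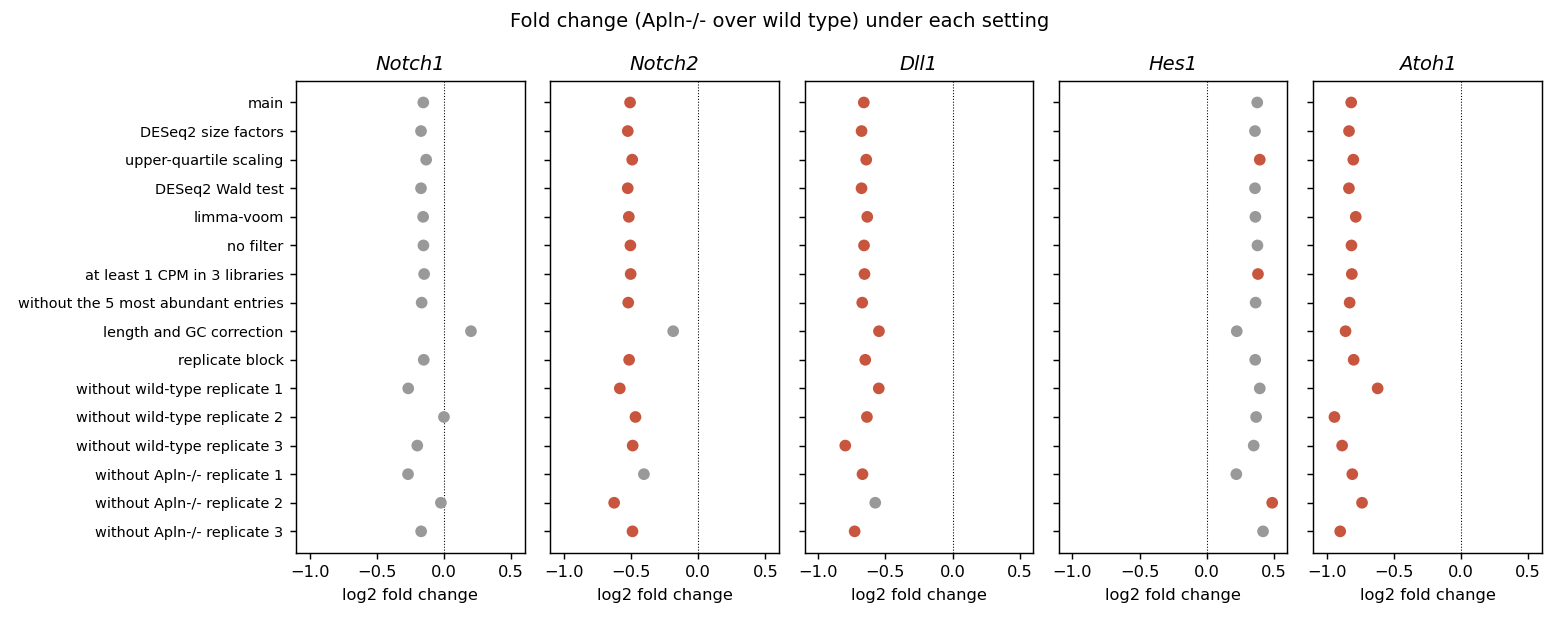
Log2 fold change, Apln-/- over wild type, of 5 genes in the edgeR fit as reported (main) and under 15 alternative settings; red points have an unadjusted p under 0.05. Atoh1 is red throughout, between -0.94 and -0.62, whereas Notch2 moves to -0.19 and Notch1 to 0.20 with the length and GC correction.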

How the data were processed

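Raw read counts per gene were deposited by the authors for 6 libraries, without normalization. The submitters' processing notes list STAR 2.6.1, HTSeq and mm10. No source used here gives the annotation release or the strand setting. Transcripts were amplified before library preparation, per the labels' protocols. Symbols, positions and longest transcripts came from GENCODE M21 of that build, which matched 28551 of 28564 identifiers.

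Counts were fitted in R 4.3.3 with edgeR 4.0.16: filterByExpr (count minimum 10, total minimum 15) left 15122 genes, libraries were scaled by TMM, and Apln-/- was tested against wild type by glmQLFit and glmQLFTest without covariates, with Benjamini-Hochberg adjustment over all genes and a threshold of 0.05. The SE is the log2 fold change over the root of the F statistic. The fit was tested on simulated data. Per-length levels are counts per kilobase scaled to the same total. Log2 CPM profiles used a prior count of 2. Replicates differed by more than sampling noise (chi-square per degree of freedom 7.60 to 54.8). 3 against 3 limits an exact permutation test to p = 0.1 or more, so none was used on single values. Intervals and the floor of 3 counts cover no error of amplification.

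Alternatives were DESeq2 1.42.0 size factors and Wald test, upper-quartile scaling, limma-voom (limma 3.58.1), 2 other filters, leaving out the 5 most abundant entries, offsets for transcript length and GC content (mgcv 1.9.3), the replicate number as a block and leaving out each library. They were also applied to the gene lists, a choice made after seeing the data. Members and lists were chosen with earlier results of these data known. Named are the members, the 4 genes of lowest p per pathway list, the nearest profiles, the first 2 markers of each epithelial cell type (other cell types by their sums) and Apln; others are marked, and 1 gene that the rule names is not reported here. Of the listed genes 7 were not analysed here.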

Additional observations from a re-analysis of the deposited data

How the results depend on the processing

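Over 149 recalculated log2 fold changes of single members, 142 kept their direction and their side of the threshold, 1 passed it (Atoh1 in the DESeq2 Wald test, -0.83, adjusted p 0.0437) and 6 turned direction, all of genes whose interval spans 0. These were Dll4 (0.017 with the length and GC correction, 0.0065 without Apln-/- library 2), Jag1 (-0.14 without wild-type library 1, -0.10 without wild-type library 3, -0.30 without Apln-/- library 3, in a range up to 0.32 when 1 library was left out) and Notch1 (0.20 with the length and GC correction). That correction also turned the median of the members, from -0.13 to 0.10. Leaving out 1 library each gave medians from -0.24 to -0.01. The cause was not tested.

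The number of members called was 1 in the DESeq2 Wald test and 0 under all other settings. The number at an unadjusted p under 0.05 was 2 to 4. The share of all tested genes at that p ran from 8.42% (without Apln-/- library 1) to 19.5% (without wild-type library 3). The number of genes called over the whole table, 26 as reported, was 1 with DESeq2 size factors, upper-quartile scaling, the length and GC correction or without the 5 most abundant entries. It was 56 with limma-voom, 117 with a minimum of 1 CPM in 3 libraries, 629 with no filter and 581 in the DESeq2 Wald test, and 0 to 358 when 1 library was left out (358 without wild-type library 3, 1 without Apln-/- library 2 and 0 without any of the others). With the replicate number as a block it was 173, with 0 members called. Same-numbered libraries share only a number: their deviations from the group means correlated at 0.04, 0.06 and 0.01 (3 pairs). Depth limits Mfng and Gfi1, with 0 to 62 counts per library.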

Other observations

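Muscle genes varied between libraries without following the genotype evenly. Acta2, a smooth muscle actin gene, was at 6.78 CPM in Apln-/- library 2 and at 0 to 1.37 CPM in the 5 others, and Myh11 at 10.8 CPM there and at 0.505 to 0.938 CPM elsewhere. Without that library the log2 fold changes were -0.74 for Atoh1, -0.58 for Dll1 (unadjusted p 0.0532 in edgeR's quasi-likelihood test) and 0.49 for Hes1.

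Stem cell markers had a median of 0.02 (log2 fold change, 12 tested genes), with 0 lower and 0 higher at an unadjusted p under 0.05 in edgeR's quasi-likelihood test and 0 after adjustment. Without Apln-/- library 2, 4 of the 12 were higher at that p and the median was 0.21. Lgr5 was at 37.5, 35.5 and 26.1 CPM in the controls and 38.6, 25.7 and 34.7 CPM in Apln-/-. Marker sums of cells outside the epithelium overlapped between the groups. Over the 6 libraries they were 2.91 to 8.40 CPM for endothelial, 12.5 to 25.03 for immune, 2.40 to 37.6 for stromal and 4.54 to 13.2 for neural genes. The ligand genes Dll4 (3.00 to 4.72 CPM) and Jag1 (2.95 to 6.10 CPM) lay in the range of the endothelial sums. Which cells their reads came from was not tested. Ptprc was at 2.82, 3.31 and 2.18 CPM over the controls and 1.27, 1.80 and 1.18 CPM in Apln-/-, without overlap. Absorptive enterocyte markers had a median of 0.17 over 12 tested genes, with 1 lower (Fabp1) and 1 higher (Apoa1) at that p and overlapping sums; the means of Alpi were 16.5 ± 3.84 and 14.5 ± 2.01 CPM (wild type, Apln-/-). These names were chosen after their values were seen, apart from the members, Alpi, Apoa1, Lgr5 and Ptprc.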
